A study of Mus musculus with 7 samples.

Results

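Apoe encodes apolipoprotein E, and the genes described here are Apoe and 8 genes beside it on mouse chromosome 7: Gemin7, Clasrp, Relb, Clptm1, Apoc1, Tomm40, Bcam and Bcl3. They were taken by symbol from a table of 21878 genes, and all 9 passed the filter on low counts that left 14609 genes tested. Apoe was selected on its measured counts in this comparison, in which it had the smallest p-value, and its neighbours were chosen by position with their values known. The differences between groups in the 9 genes are therefore a description, with no test of their own. The sequenced tissue was abdominal aorta, taken from male mice of the C57BL/6 strain, 8 weeks of age by the labels, that received angiotensin II (Ang II) for at most 28 days. Ang II raises blood pressure, and its infusion into mice with high plasma cholesterol is a standard way to provoke aneurysms of the aorta. In 4 libraries the genotype label was ApoE-/-Nur77-/- (DKO 1 to DKO 4) and in 3 it was ApoE-/- (ApoE 1 to ApoE 3), so the label of every library includes loss of ApoE, and only the first group is labelled as lacking Nur77, the nuclear receptor encoded by Nr4a1. The sources used here do not give which part of Apoe or Nr4a1 the alleles remove, or whether each library came from its own mouse. The p-values below thus measure the spread between these libraries, which may be technical.

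Apolipoprotein E coats chylomicron and very low density lipoprotein remnants and is bound by receptors of the LDL receptor family, which take the particles up. It is made by hepatocytes and by macrophages, among other cells, and mice without it have high plasma cholesterol and form atherosclerotic lesions. In mammals its gene lies in a tight cluster with those of the smaller apolipoproteins C-I, C-II and C-IV, and the housekeeping gene Tomm40 lies directly upstream. The flanking genes do unrelated work: Bcam is a laminin receptor of the cell surface, Clptm1 a multipass membrane protein, Clasrp a partner of the splicing kinase CLK4, Gemin7 a subunit of the SMN complex that assembles spliceosomal ribonucleoproteins, and Relb and Bcl3 belong to the NF-kB system.

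On GRCm38.p6 the 9 genes start within a stretch that runs to the end of Bcl3 and covers 258 kb (chr7:19564949-19822824). In order of position they are Gemin7, Clasrp, Relb, Clptm1, Apoc1, Apoe, Tomm40, Bcam and Bcl3, all transcribed from the minus strand. In positions and distances throughout, the start of a gene is its lower coordinate, which for these genes is the 3′ end. The annotated and listed starts of the promoters are instead those of transcription. Apoe (chr7:19696244-19701310) and Tomm40 (chr7:19701313-19715442) are separated by 2 bases in the RefSeq gene bounds. The RefSeq promoter table held entries for 7 of the 9 genes; Apoc1 and Relb had none. The 250 bases before the annotated start are printed for the gene with the largest difference between groups (Apoe, the most upstream of its 3 listed starts, which lies inside the RefSeq gene bounds), its upstream neighbour (Tomm40), the more distant gene that was also lower in most DKO libraries (Bcam) and the one gene with a higher mean in DKO libraries (Bcl3). Letters are 5′ to 3′ on the transcribed strand, and capitals mark matches on either strand to the GC box (GGGCGG) or the CCAAT box (CCAAT).
Apoe, chr7:19699189-19699438, minus strand: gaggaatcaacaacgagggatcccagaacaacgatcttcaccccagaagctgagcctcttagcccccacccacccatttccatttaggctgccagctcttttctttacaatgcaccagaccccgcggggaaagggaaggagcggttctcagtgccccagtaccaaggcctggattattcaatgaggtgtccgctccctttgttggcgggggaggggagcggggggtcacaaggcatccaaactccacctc
Tomm40, chr7:19715430-19715679, minus strand: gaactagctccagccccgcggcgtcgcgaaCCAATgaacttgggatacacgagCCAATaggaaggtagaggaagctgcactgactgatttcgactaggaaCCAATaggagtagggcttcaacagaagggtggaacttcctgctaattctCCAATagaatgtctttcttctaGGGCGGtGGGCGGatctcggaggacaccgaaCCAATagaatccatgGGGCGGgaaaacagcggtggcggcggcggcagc
Bcam, chr7:19770533-19770782, minus strand: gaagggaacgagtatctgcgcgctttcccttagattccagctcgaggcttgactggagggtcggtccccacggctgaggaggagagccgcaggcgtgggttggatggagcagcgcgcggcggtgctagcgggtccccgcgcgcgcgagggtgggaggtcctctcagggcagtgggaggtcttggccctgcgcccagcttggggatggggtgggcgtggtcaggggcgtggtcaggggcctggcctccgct
Bcl3, chr7:19822756-19823005, minus strand: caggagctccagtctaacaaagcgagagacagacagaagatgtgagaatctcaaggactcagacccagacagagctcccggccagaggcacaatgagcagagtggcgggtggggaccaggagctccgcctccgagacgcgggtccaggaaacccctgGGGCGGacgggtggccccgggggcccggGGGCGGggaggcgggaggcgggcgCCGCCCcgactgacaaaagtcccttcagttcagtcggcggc
The Tomm40 window held 3 GC boxes and 5 CCAAT boxes, and the Bcl3 window held 3 GC boxes. The windows of Apoe and Bcam held neither, although 70.0% of the Bcam bases were G or C, against a median of 52.4% over all promoters. Of 32817 promoter windows of this length, 32.7% held a GC box and 33.8% a CCAAT box. Searches for the TATA box (TATAAA, in 12.4% of all windows), the E-box CACGTG (6.02%) and the NF-kB motif (3.90%) found nothing in these 4 windows. The window of another listed Apoe start, not printed, held 2 overlapping TATA box matches. No 2 different motifs overlapped. A match or its absence describes only the letters in these windows.

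Library totals were 19295287 to 21727192 counts, and levels are given as CPM, the count of a gene relative to its library's TMM-adjusted total. At this depth a gene with no count could lie as high as 0.138 to 0.155 CPM (3 counts), for counting error only. The smooth muscle markers of the aorta were present, with all 12 tested. Nr4a1 (chr15:101253902-101274795), the second gene named by the labels, was read in every library, at 46.2, 57.0, 90.1 and 92.7 CPM in DKO 1 to DKO 4, against 193, 56.4 and 111 CPM in ApoE 1 to ApoE 3. The groups overlapped (log2 fold change -0.75, SE 0.42, edgeR adjusted p = 0.360). Neither this gene nor Apoe was absent from the libraries labelled as lacking it, so the groups are called by their labels throughout, and every direction is that of libraries labelled ApoE-/-Nur77-/- (DKO) against libraries labelled ApoE-/- (ApoE). Gene counts do not tell which exons the reads came from.

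Apoe was far lower in every DKO library than in any ApoE library. It had 34.7, 18.3, 33.8 and 28.1 CPM in DKO 1 to DKO 4, against 233, 250.3 and 184 CPM in ApoE 1 to ApoE 3. The highest DKO library lay well below the lowest ApoE library, and no library of either group stood in the gap. The means were 28.7 ± 7.52 CPM in DKO libraries (SD, n = 4) and 222 ± 34.4 CPM in ApoE libraries (SD, n = 3), 7.73-fold lower in DKO (log2 fold change -2.95, SE 0.23). These values rest on 391 to 762 counts in DKO libraries and 3370 to 5445 counts in ApoE libraries. Apoe was the 1 member of 9 called lower at an edgeR adjusted p under 0.05, where 0.0274% of all genes tested were called lower. It remained the called member without DKO 1 or DKO 2, and no member was called without DKO 3, DKO 4, ApoE 1, ApoE 2 or ApoE 3. The log2 fold change lay between -3.07 and -2.77 in these 7 fits.

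**Figure D1:**
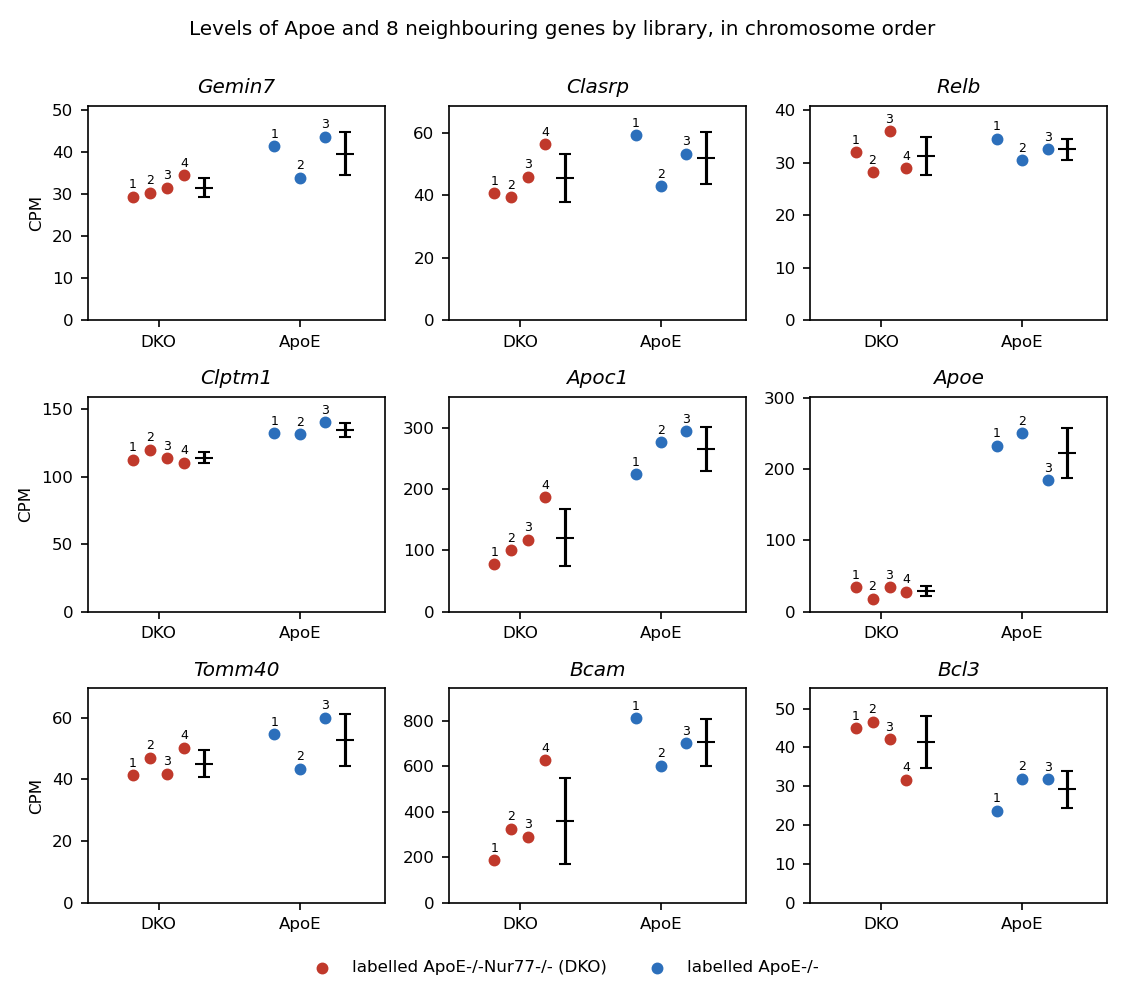
CPM of the 9 genes in each library, with libraries labelled ApoE-/-Nur77-/- (DKO, red) left of libraries labelled ApoE-/- (ApoE, blue), numbers giving the library and black bars the mean ± SD. Apoe is at 18.3 to 34.7 CPM in DKO libraries against 184 to 250.3 CPM in ApoE libraries, Apoc1 and Clptm1 also do not overlap, and DKO 4 lies among or near the ApoE libraries for Bcam and Bcl3.

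Apoc1, which encodes a small exchangeable apolipoprotein that hinders the clearance of remnant particles, was lower in DKO libraries too, by less. Apoc1 (chr7:19689480-19692659) had 77.9, 100.5, 118 and 187 CPM in DKO 1 to DKO 4, against 224, 277 and 294 CPM in ApoE 1 to ApoE 3. The groups did not overlap, with DKO 4 nearest to the ApoE libraries. The log2 fold change was -1.14 (SE 0.28) over all libraries and -1.43 without DKO 4. Ratios of raw counts within a library need no scaling between libraries. Apoe had 0.445, 0.182, 0.288 and 0.151 counts per Apoc1 count in DKO 1 to DKO 4, against 1.04, 0.905 and 0.625 in ApoE 1 to ApoE 3. Against Tomm40, its upstream neighbour, Apoe had 0.389 to 0.839 counts per count in DKO libraries and 3.06 to 5.76 in ApoE libraries. Neither ratio overlapped between groups. Both ratios hold the Apoe counts on which Apoe was selected. They restate its difference relative to both genes beside it and give no separate support.

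The housekeeping genes on both sides of the cluster differed less than Apoe and Apoc1. Over all genes tested the median absolute log2 fold change was 0.22. Tomm40 lay at about this value, Clptm1 and Gemin7 above it and Clasrp below it. Tomm40, the channel through which proteins enter mitochondria, had 41.3, 47.1, 41.9 and 50.3 CPM in DKO libraries, against 54.6, 43.5 and 60.001 CPM in ApoE libraries. Its groups overlapped, with ApoE 2 below DKO 2 and DKO 4 (log2 fold change -0.22, SE 0.13). Clptm1, whose product holds GABA-A receptor subunits back inside the cell, had the least spread of the 9 genes, with a coefficient of variation of 3.55% over DKO libraries and 3.74% over ApoE libraries. It had 113, 120.1, 114 and 111 CPM in DKO libraries, against 132, 132 and 141 CPM in ApoE libraries, so that a small difference (log2 fold change -0.24, SE 0.07) left the groups without overlap. Gemin7 had 29.4 to 34.6 CPM in DKO libraries and 33.9 to 43.7 CPM in ApoE libraries. It overlapped only through DKO 4 and ApoE 2 (log2 fold change -0.33, SE 0.11). Clasrp had 39.3 to 56.3 CPM in DKO libraries and 42.9 to 59.3 CPM in ApoE libraries, an overlap over most of the range (log2 fold change -0.19, SE 0.16).

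Bcam was read at the highest CPM of the 9 genes and varied most among DKO libraries. The product, also called the Lutheran glycoprotein, binds laminin alpha-5 chains and is made in smooth muscle and endothelium. It had 188, 326, 291 and 626 CPM in DKO 1 to DKO 4, against 809.9, 603 and 700.5 CPM in ApoE 1 to ApoE 3. DKO 4 lay above ApoE 2 while the other DKO libraries lay below every ApoE library, and the coefficient of variation was 52.6% over DKO libraries and 14.7% over ApoE libraries. The log2 fold change was -0.98 (SE 0.37), and -1.39 without DKO 4. The mean log2 CPM of the 12 smooth muscle markers was 8.59, 9.24, 9.39 and 10.4 in DKO 1 to DKO 4, against 10.1, 9.51 and 9.80 in ApoE 1 to ApoE 3. DKO 1 was the lowest library and DKO 4 the highest DKO library for Bcam and for these markers. The part of smooth muscle content in the Bcam values was not tested, and in bulk tissue fewer cells of a type and less RNA per cell cannot be told apart. The 10 endothelial markers overlapped between groups (7.02 to 7.30 in DKO libraries and 7.07 to 7.34 in ApoE libraries).

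**Figure D2:**
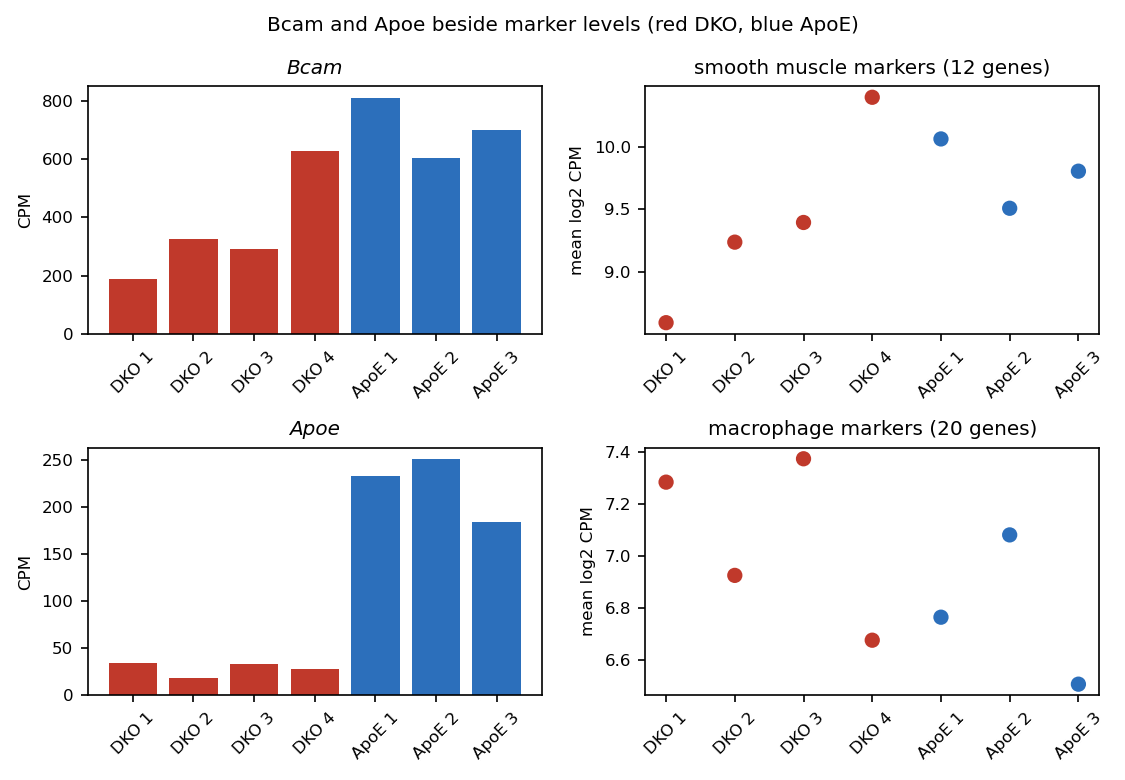
Left, CPM of Bcam and Apoe in each library (bars, from 0); right, the mean log2 CPM of 12 smooth muscle and 20 macrophage markers in the same libraries (points), with DKO in red and ApoE in blue. Bcam and the smooth muscle markers are both lowest in DKO 1 and among DKO libraries highest in DKO 4. Apoe does not overlap between groups, the macrophage markers do, and their part in the Apoe values was not tested.

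Relb and Bcl3, the pair of NF-kB genes, stood differently between the groups. Relb is the transcription factor subunit of the non-canonical pathway, and it had 32.1, 28.2, 36.1 and 29.0 CPM in DKO libraries, against 34.6, 30.5 and 32.6 CPM in ApoE libraries. The groups lay over each other (log2 fold change -0.06, SE 0.11). Bcl3, an atypical IkB protein that binds p50 and p52 homodimers in the nucleus, was the 1 member with a higher mean in DKO libraries. It had 45.1, 46.6, 42.2 and 31.7 CPM in DKO 1 to DKO 4, against 23.8, 31.9 and 31.9 CPM in ApoE 1 to ApoE 3. DKO 1 to DKO 3 lay above every ApoE library and DKO 4 lay among them, as it did for Bcam (log2 fold change 0.50, SE 0.17). Over the genes read, DKO 4 differed less from ApoE 1 (chi-square per gene 45.5) than from DKO 1, DKO 2 or DKO 3 (71.9 to 134). The position of DKO 4 is thus not particular to Bcam and Bcl3. Bcl3 had 1.40, 1.66, 1.17 and 1.09 counts per Relb count in DKO libraries, against 0.687, 1.05 and 0.978 in ApoE libraries. This ratio did not overlap between groups, but only by the narrow gap between DKO 4 and ApoE 2. The share of such ratios over all genes was not computed. Among the ratios not given here, Bcam to Clptm1 overlapped and Apoc1 to Tomm40 did not.

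Over all 9 genes, 8 had negative and 1 had a positive fold change, and 52.6% of all genes tested were negative. The median log2 fold change was -0.24 over the 9 genes, -0.23 over the 8 without Apoe and -0.02 over all genes tested. Groups did not overlap for 3 of the 9, Apoe, Apoc1 and Clptm1, all lower, where 9.24% of all genes tested were lower and 7.08% higher without overlap. No member was called higher by edgeR at an adjusted p under 0.05 (0% of all genes tested were called higher, although 1168 genes were higher at an unadjusted p under 0.05 and DESeq2 called 461 higher).

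FPKM values, which scale for gene length, allow levels to be compared between genes. Apoc1 was highest, at 172 ± 62.1 FPKM in DKO libraries (SD, n = 4) and 368 ± 51.3 FPKM in ApoE libraries (SD, n = 3), and Bcam followed at 114 ± 54.8 FPKM in DKO libraries and 217 ± 32.9 FPKM in ApoE libraries. In DKO libraries Apoe stood at 12.1 ± 3.43 FPKM, above 71.6% of the genes tested and below Gemin7 (36.9 ± 1.15 FPKM), Tomm40 (21.9 ± 1.27), Clptm1 (18.4 ± 1.20) and Bcl3 (17.8 ± 3.79). In ApoE libraries Apoe came next after Bcam, at 83.5 ± 14.6 FPKM, above 95.4% of the genes tested, and those 4 genes were at 43.5 ± 3.12, 24.3 ± 3.19, 20.6 ± 0.46 and 12.1 ± 1.999 FPKM. Relb and Clasrp were lowest in both groups, at 7.80 and 7.05 FPKM in DKO libraries and 8.00 and 8.37 FPKM in ApoE libraries. Among neighbours in the order of DKO levels, the ranges of Apoc1 and Bcam, Clptm1 and Bcl3, Bcl3 and Apoe, Apoe and Relb, and Relb and Clasrp overlapped. In ApoE libraries only Tomm40 and Clptm1, and Clasrp and Relb, overlapped among such neighbours. The order depends on the gene lengths that were used for FPKM. Raw counts relative to the unadjusted library total, divided by FPKM, gave an implied length of 2.16 to 2.77 kb for Apoe, although the protein-coding Apoe transcripts of GENCODE M21 are 0.456 to 1.41 kb long and all its exons together cover 2.14 kb. For Apoc1 the implied length was 0.689 to 0.741 kb, against coding transcripts of at most 0.532 kb and exons of 0.744 kb together. Implied lengths varied between libraries, and differently from gene to gene. The FPKM are therefore not these counts divided by a single fixed length for each gene.

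**Figure D3:**
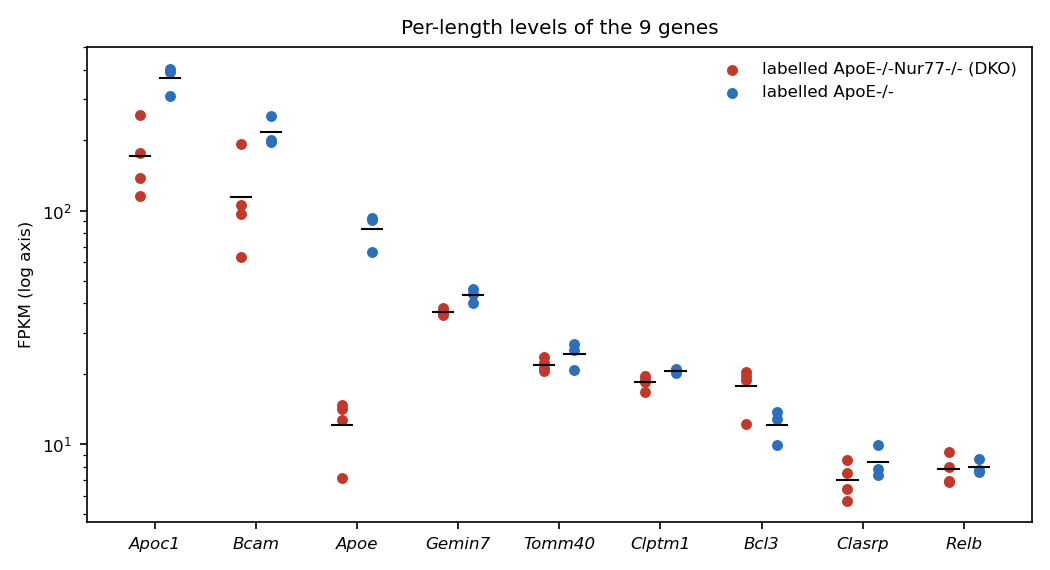
FPKM (log axis) of the 9 genes, ordered by the ApoE mean, with a point per library, DKO (red) left of ApoE (blue), and a black line at each group mean. Apoe is the seventh highest of the genes in DKO libraries at 12.1 FPKM and the third in ApoE libraries at 83.5 FPKM.

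The stretch also holds genes that are not members. Of 15 genes in the count table that start in it, 12 were tested, and 3 of these were not members. Nectin2, a cell adhesion molecule, lies between Tomm40 and Bcam and had 45.6 to 52.4 CPM in DKO libraries against 35.1 to 41.5 CPM in ApoE libraries, higher without overlap (log2 fold change 0.32, SE 0.09, edgeR adjusted p = 0.161). Apoc4, the apolipoprotein gene beside Apoc1, was read from 17, 14, 27 and 13 counts in DKO 1 to DKO 4, against 4, 6 and 1 counts in ApoE 1 to ApoE 3 (log2 fold change 2.18, SE 0.56, adjusted p = 0.156). It was higher without overlap, opposite in direction to Apoc1 and Apoe. Few counts limit this estimate, and Apoc4 shares its locus with a read-through gene of Apoc4 and Apoc2 that spans both. The read-through gene has 0 counts in every library but is listed at 4.27 to 6.08 FPKM in DKO libraries and 4.52 to 10.04 FPKM in ApoE libraries, where Apoc4 is listed at 1.53 to 3.71 FPKM in DKO libraries and 0.398 to 0.781 FPKM in ApoE libraries. The count and FPKM tables thus differ at this locus, and the direction of Apoc4 and the level of Apoc2 are uncertain. Zfp296 had 0.511 to 0.891 CPM in DKO libraries and 0.843 to 1.58 CPM in ApoE libraries, with overlap (log2 fold change -0.70, SE 0.38, adjusted p = 0.345). Apoc2, the activator of lipoprotein lipase, was not tested, with 0 counts in each DKO library and at most 3 in an ApoE library, and its interval lies within that of the read-through gene.

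Both directions also occurred in a wider window. Of 46 tested genes that start within 1 Mb of Apoe, 30 had negative fold changes, with a median of -0.20, and Apoe was the 1 gene called. Without the members, 37 genes had a median of -0.16, and 16.2% were lower and 13.5% higher without overlap. The genes outside the set with the largest differences were Ckm, Apoc4, Ceacam16, Ccdc61 and Klc3. Ckm, the creatine kinase of striated muscle, had 2.11 to 11.4 CPM in DKO libraries and 4.96 to 48.8 CPM in ApoE libraries (log2 fold change -2.02, SE 0.87, edgeR adjusted p = 0.253). For 7 cardiac muscle markers, mean log2 CPM was 0.091 to 2.07 in DKO libraries and 1.06 to 7.29 in ApoE libraries, and ApoE 3 was the highest library for Ckm and for these markers; their part in the Ckm value was not tested. Ceacam16 had 2.16 to 3.73 CPM in DKO libraries and 0.818 to 1.14 CPM in ApoE libraries (log2 fold change 1.58, SE 0.31, adjusted p = 0.128). Ccdc61 had 7.33 to 8.39 CPM in DKO libraries and 12.7 to 16.4 CPM in ApoE libraries (log2 fold change -0.88, SE 0.14, adjusted p = 0.110). Klc3, a kinesin light chain, overlapped between groups (log2 fold change -0.72, SE 0.25, adjusted p = 0.185).

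**Figure D4:**
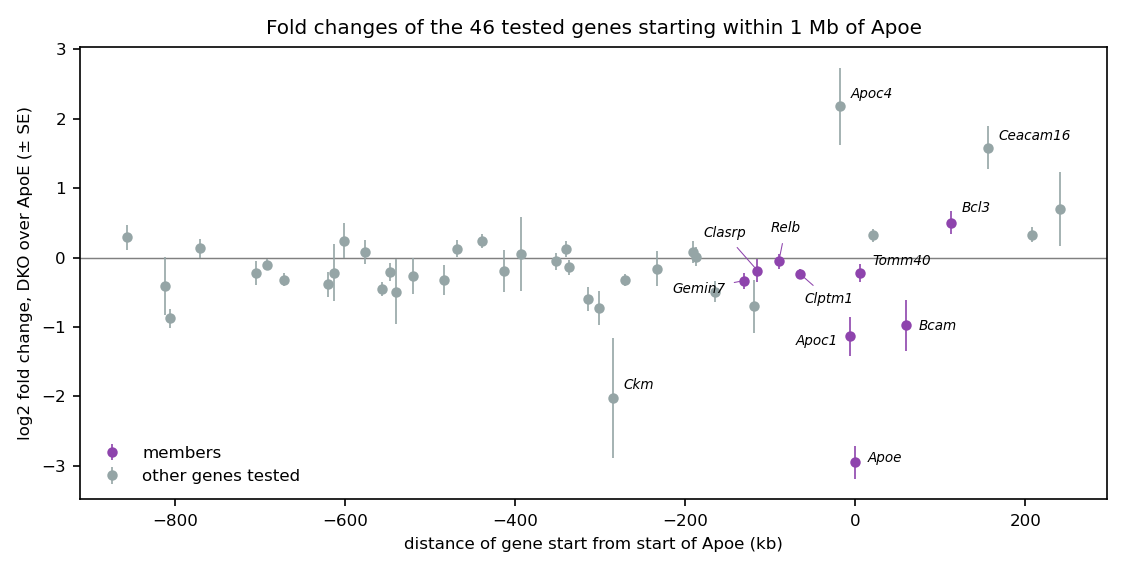
Log2 fold change of DKO over ApoE (points, with bars of ± SE) against the distance of each gene's start from the start of Apoe in kb, for the 46 tested genes within 1 Mb, with the 9 members in purple. Apoe at -2.95 lies between Apoc1 at -1.14 and Tomm40 at -0.22, and most other genes lie within 1 unit of 0.

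Of the 4 genes called lower across the genome, 3 lay on chromosome 7: Apoe, Slc1a5 and Slc7a10, at 2.91 Mb and 15.5 Mb from Apoe for the latter genes, and Lpin1 lay on chromosome 12. Chromosome 7 held 2030 of the 21878 genes in the count table. Apoe was selected on its counts, so the count of 3 is a description only. Slc1a5, a glutamine transporter, had 129 to 179 CPM in DKO libraries and 556 to 932 CPM in ApoE libraries (log2 fold change -2.38, SE 0.20, edgeR adjusted p = 0.0227). Slc7a10, an amino acid transporter, was lower by a log2 fold change of -1.29 (SE 0.12, edgeR adjusted p = 0.0415). Lpin1, a phosphatidate phosphatase gene, was at -1.16 on the same scale (SE 0.10, adjusted p = 0.0227). No gene was called lower without DKO 3, DKO 4, ApoE 1 or ApoE 3, and 1 or 2 were without DKO 1, DKO 2 or ApoE 2. On chromosome 7, genes lower without overlap made up 9.43% of 53 genes at 1 to 5 Mb from Apoe, 16.9% of 295 genes at 5 to 20 Mb and 11.2% of 734 genes beyond 20 Mb. On other chromosomes the share was 8.94% of 13449 genes. The shares higher without overlap were 9.43%, 6.44%, 3.68% and 7.25% in the same order. The share lower without overlap had no steady order with distance, and whether chromosome 7 differs from the others was not tested.

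**Figure D5:**
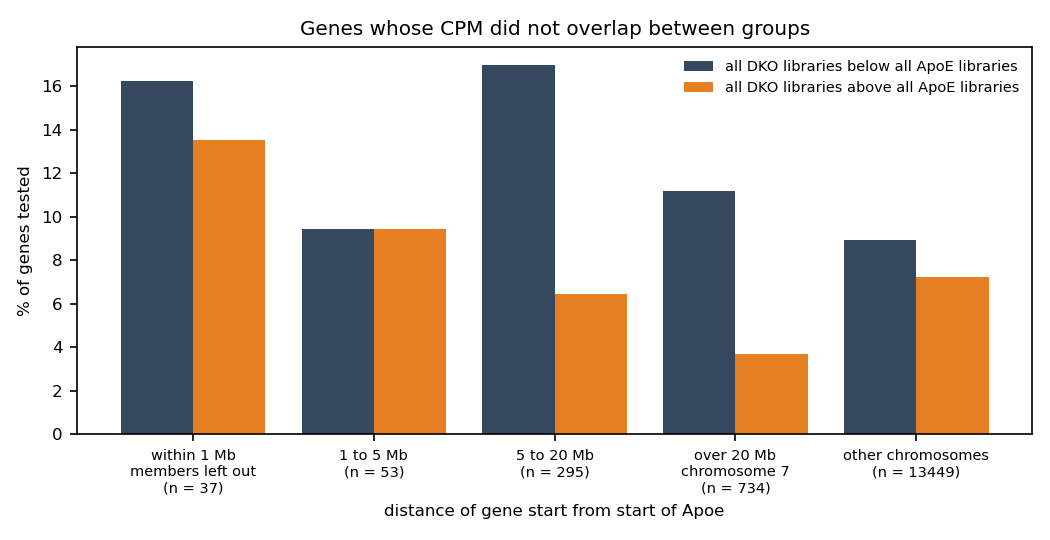
Percent of genes tested whose CPM in all DKO libraries lay below (dark) or above (orange) that in all ApoE libraries, by distance of the gene's start from the start of Apoe and for other chromosomes (n, genes tested). The first bars leave the members out, and the bars for lower genes are at 16.2%, 9.43%, 16.9%, 11.2% and 8.94% from left to right.

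The profile of Apoe over the 7 libraries was set against those of 13025 genes with a mean log2 CPM of at least 1, as the root mean square difference of log2 CPM after each gene was centred on its mean. Slc1a5 was nearest, at 0.51. Cyp2b10, a cytochrome P450 gene also on chromosome 7, followed at 0.59, then Myoc, the myocilin gene, at 0.59, Angptl7 at 0.64 and Htra4 at 0.71, on 3 other chromosomes. The median over all genes was 1.52. Angptl7, an angiopoietin-like factor, had 2.77 to 14.4 CPM in DKO libraries and 38.2 to 92.5 CPM in ApoE libraries. Of the members, Apoc1 (1.01, rank 98) and Bcam (1.13, rank 275) were nearest to Apoe, and Tomm40 was at rank 3448 and Bcl3 at rank 11950. The measure includes the difference between groups on which Apoe was selected. These ranks therefore largely follow the fold changes and give no separate support.

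Genes that work with the 9 were read from lists, chosen with earlier results of these data known. Of 8 tested apolipoprotein genes (of 16 listed), 3 were lower and 5 higher in fold change (median 0.30), and Apoc4, above, had the smallest p. Of 22 tested genes for ApoE receptors and lipid handling (of 25), 13 were negative (median -0.17). The smallest p was that of Gpihbp1, which carries lipoprotein lipase to the capillary lumen, at 27.4 to 48.1 CPM in DKO libraries and 58.4 to 102 CPM in ApoE libraries (log2 fold change -1.03, SE 0.24, edgeR adjusted p = 0.146). For Tomm40, 13 of 14 mitochondrial import genes were negative (median -0.24), Timm50 of the inner membrane translocase among them (log2 fold change -0.60, SE 0.15, adjusted p = 0.156). For Gemin7, 7 of 8 SMN complex genes were positive (median 0.09; Strap 0.13, SE 0.08, adjusted p = 0.403). For Relb and Bcl3, 12 of 17 NF-kB and IkB genes were positive (median 0.18), Traf3, which restrains the non-canonical pathway, at 54.0 to 61.1 CPM in DKO libraries and 44.6 to 47.3 CPM in ApoE libraries (log2 fold change 0.31, SE 0.08, adjusted p = 0.150). For Bcam, 8 of 10 laminin and laminin receptor genes were positive (median 0.11; Itgb1 0.26, SE 0.14, adjusted p = 0.355). For Clasrp, 9 of 15 CLK and SR splicing genes were positive (median 0.05; Srsf3 0.34, SE 0.12, adjusted p = 0.193). edgeR called 0 genes of these 7 lists. At an unadjusted p under 0.05 the lists, in the order given, held 1, 6, 7, 0, 1, 0 and 0 lower and 1, 1, 0, 0, 4, 0 and 2 higher genes, where 11.8% of all genes tested were lower and 8% higher. DESeq2 called 0, 1, 1, 0, 1, 0 and 0 lower and 0, 1, 0, 0, 1, 0 and 1 higher, where it called 4.96% of all genes with an adjusted p lower and 3.35% higher.

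Marker lists of cells that make Apoe or border the aorta differed between groups for some cell types and overlapped for others. edgeR called 0 genes of these 11 lists. Of 20 macrophage markers 18 had positive fold changes (median 0.38), with a summed level of 4078 to 7880 CPM in DKO libraries and 3699 to 5550 CPM in ApoE libraries. The macrophage level overlapped between groups, and its part in the Apoe values was not tested. Foamy macrophage markers (median 0.18) summed to 7569 to 16641 CPM in DKO libraries and 9056 to 11628 CPM in ApoE libraries. White adipocyte markers were negative for 16 of 16 (median -1.02), 13 of them without overlap, 15 at an unadjusted p under 0.05 and 14 called lower by DESeq2. Over all genes the shares by these rules were 9.24%, 11.8% and 4.96%. They summed to 6029.5 to 9362 CPM in DKO libraries and 12374 to 16829 CPM in ApoE libraries. Adventitial fibroblast markers were negative for 10 of 12 (median -0.47), 6 of them called lower by DESeq2, and summed to 6148 to 7323 CPM in DKO libraries and 8914 to 11267 CPM in ApoE libraries. Their part in the Apoe, Apoc1 and Bcam differences was not tested. Of 8 hepatocyte markers only Ahsg passed the filter on low counts, at a level of 3.47 to 9.51 CPM in DKO libraries and 11.0 to 13.4 CPM in ApoE libraries, and Alb and Ttr did not. The other medians were -0.27 for 12 smooth muscle, -0.12 for 10 endothelial, 0.50 for 11 lymphocyte and dendritic, -0.44 for 8 Schwann, -0.61 for 2 tested adrenal steroidogenic and -3.69 for 7 cardiac markers, and the levels of these lists overlapped between groups. Of 7 adrenal markers 5 did not pass the filter. All 7 cardiac markers were negative, 7 of them at an unadjusted p under 0.05, 4 called lower by DESeq2 and 1 without overlap. Their level overlapped only through ApoE 1, at a mean log2 CPM of 1.06, against 5.45 and 7.29 in ApoE 2 and ApoE 3. In DKO libraries it was 0.091 to 2.07. The part of cardiac tissue in the differences of the 9 genes was not tested.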

How the data were processed

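Strand-marking libraries (TruSeq Stranded mRNA) of aortic RNA were made, per the labels' protocols. Trimmomatic, HISAT2, HTSeq, Cufflinks, DESeq and GRCm38.p6 are named in the submitters' processing notes, with no versions or roles. The sources used here give neither the annotation nor the strand setting of the counting, which leaves overlapping and antisense genes uncertain. The deposited gene counts are raw whole numbers, whereas the FPKM were scaled by the authors for length and depth. Each column was assigned to its sample by the group and number in its name, with columns named KO taken as the samples titled DKO. Positions came from RefSeq on GRCm38.p6 by gene identifier, promoter sequences from RefSeq on the same build, and transcript lengths from GENCODE M21. The tables held 27 symbols turned into dates, which were restored by identifier.

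Counts were filtered (filterByExpr, minimum count 10), scaled by TMM and tested with edgeR 4.0.16 (quasi-likelihood, R 4.3.3), DKO 1 to DKO 4 against ApoE 1 to ApoE 3, with Benjamini-Hochberg adjustment over 14609 genes and a threshold of 0.05. SE was obtained by dividing the size of the log2 fold change by the root of its F statistic. The level of a list is the mean log2 CPM of its tested genes, with a prior count of 2. No 2 libraries agreed within counting noise (lowest chi-square per gene 34.0). The test was checked on simulated counts, where it found most of the largest changes and none of the smallest, so a gene not called may still differ.

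Named genes were the members, Nr4a1, the genes called, the 5 other genes within 1 Mb of Apoe with the largest absolute fold change, the 5 with the profile nearest to Apoe, and in each pathway list up to 3 called genes or the 1 with the smallest p. Zfp296, Nectin2, Apoc2, Ahsg, Alb and Ttr were named after their values were seen. The members and lists were chosen with earlier results of these data known. Alternatives were RLE scaling, DESeq2 1.42.0, no filter, a minimum count of 50, a replicate block, each library left out, limma 3.58.1 on log2(FPKM + 1) or log2(FPKM + 0.1) with a minimum mean of 1 or none, and windows of 0.5 and 2 Mb.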

Additional observations from a re-analysis of the deposited data

How the results depend on the processing

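The log2 fold changes of the 9 genes moved by less than the spread between replicates in 132 of 135 refits (15 alternatives for each gene), the other 3 being Clptm1 with limma on FPKM (-0.15 to -0.16). That spread is the SD of single libraries, and leaving out 1 library usually moves a group mean by only part of it. The count is thus a lenient measure of stability. Apoe ranged from -3.07 to -2.72 and was called in 8 of 15. Relb, near 0, had a positive value (0.011) without DKO 2. Over all genes DESeq2 called 681 lower and 461 higher and 3 members lower (Apoe, Apoc1 and Clptm1). With the replicate number as a block, edgeR called 0 genes lower and 0 members lower, while 2232 were lower and 1720 higher at an unadjusted p under 0.05, and Apoe was at -2.98. Only the DKO group has a library numbered 4, so DKO 4 adds nothing to the fold changes of the block fit. Deviations of same-numbered libraries correlated at -0.39, 0.70 and 0.00363, which does not settle whether the numbers pair the libraries. With limma on log2(FPKM + 1) and no filter, 0 genes and 0 members were called lower, and the median within 1 Mb of Apoe was -0.0331. With a minimum mean of 1 both pseudocounts gave 1 gene called higher. Leaving out 1 library gave 0 to 2 genes called lower, 0 to 4 called higher and 0 to 1 members called lower, and a median within 1 Mb of -0.25 to -0.11. The counts of 0 genes called lower came without DKO 3, DKO 4, ApoE 1 or ApoE 3, with 935 to 2481 genes lower at an unadjusted p under 0.05. The window of 0.5 Mb gave a median of -0.16. The window of 2 Mb held the same 46 genes as that of 1 Mb, so its median (-0.20) is no separate value. Apoc4, Zfp296 and Ceacam16 rest on few counts per library, which limits their fold changes.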
